A study of Mus musculus with 6 samples.

Results

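Wnt and planar polarity genes were followed in luminal epithelial cells of the mouse mammary gland, the cells that line the ducts and make milk. The cells came from Ocln knockout and Control mice, Ocln being the gene of the tight junction protein occludin. The genes were taken by symbol: Wnt ligands, frizzled and other receptors, R-spondins and their LGR receptors, secreted inhibitors, Dishevelled, Axin and Apc scaffolds, TCF/LEF factors, and the polarity genes Prickle and Vangl. Of 16701 genes in the authors' deposited table, 51 met this rule. RefSeq holds 72 symbols that match. The other 21, among them Lef1, Wnt10a and Fzd9, are absent from the deposited table and so are not analysed here. All R-spondins, Rspo1 to Rspo4, are among these 21, so the members include 0 R-spondins. Polyadenylated RNA was sequenced from 3 Ocln knockout libraries and 3 Control libraries, all from mice 7 weeks old. Control animals are labelled WT, and both genotypes share the tissue, the cell type and the age. The sources used here do not give the Ocln allele, the strain, how cells were isolated or whether each library is a separate mouse, so p-values measure the spread between libraries, which may be partly technical.

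Wnt proteins are secreted lipid-bearing ligands that bind frizzled receptors. With the LRP5 and LRP6 co-receptors they protect beta-catenin from a destruction complex built on Axin and Apc, and beta-catenin then works with TCF/LEF factors on target genes. Through other frizzled partners, Prickle and Vangl proteins align cells in the plane of a tissue, the planar polarity branch. In the mammary gland Wnt4 is a progesterone-responsive ligand made by hormone-sensing luminal cells, and Wnt signalling is known for sustaining stem and progenitor cells.

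The data are 1 comparison, Ocln knockout over Control, with a mean level (normalized counts averaged over all libraries), and per gene a log2 fold change with a standard error (SE). Values per library were not used here, and library depth is unknown. As a check of the labels, Ocln fell by 1.15 ± 0.16 on the log2 scale (± SE; adjusted p = 4.36e-09 by DESeq2) in the authors' deposited table. The luminal keratin genes Krt18 and Krt8 had 58513 and 31521 normalized counts per kb of exon, against 327 for the myoepithelial actin gene Acta2 and 127 for the basal keratin gene Krt14, from the levels of the authors' deposited table. A gene is called here where its adjusted p, taken over all listed genes, is under 0.05. Group levels below are approximate, since they split the deposited mean level by the deposited fold change as if all libraries weighed the same. In bulk RNA, fewer cells of a type and less RNA per cell cannot be told apart.

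Of the 51 members, 3 rose in the Ocln knockout, Prickle1, Dkk3 and Tcf7l1, and 1 fell, Lgr5. These 4 calls are 7.84 percent of the members, where 1.08 percent of all listed genes were called. Higher calls made up 0.808 percent and lower calls 0.275 percent of all listed genes. An unadjusted p under 0.05 was found for 7 positive and 2 negative members, 17.6 percent of the members beside 9.07 percent of all genes (5.23 percent higher and 3.83 percent lower). The median log2 fold change was 0.10 over the members and -0.01 over all genes. A positive value was found for 33 members and a negative one for 18. Thus 64.7 percent of members were positive, beside 48.8 percent of all genes. Over all genes the Wald score, log2 fold change over SE, rose weakly with exon length (Spearman rho of 0.178). These shares are not corrected for length or level, and the members were chosen with earlier results of these data known. At a mean level of at least 50, 4 of 46 members and 1.37 percent of all genes were called. The contrasts thus describe the set and do not test it. For 33 of the 51 members, and 11529 of the 16701 genes, the 95 percent interval lay within a log2 fold change of 1 in either direction. The authors' own calls in the deposited table, made on the unadjusted p and a minimum size, took 6 members, 4 higher and 2 lower, where such calls were 2.79 percent of all genes (1.8 percent higher and 0.988 percent lower). The interval runs 1.96 SE on either side.

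**Figure D1:**
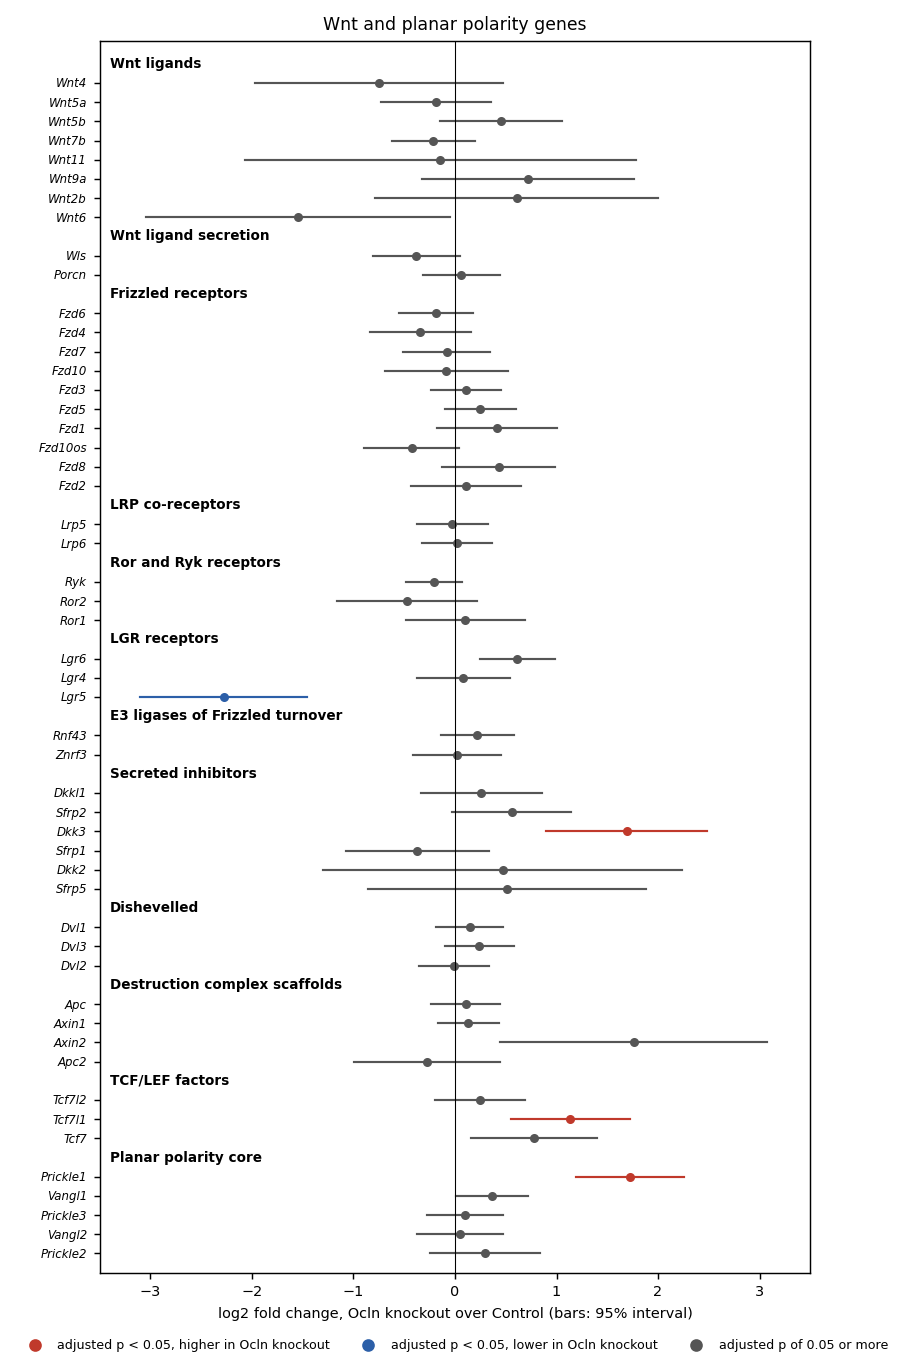
Log2 fold change of Ocln knockout over Control for each of the 51 members (points) with its 95 percent interval (bars), in role groups ordered by mean level. Prickle1, Dkk3 and Tcf7l1 lie to the right in red, Lgr5 alone lies to the left in blue, and the intervals of Lrp5, Lrp6 and the 3 Dishevelled genes span 0.

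**Figure D2:**
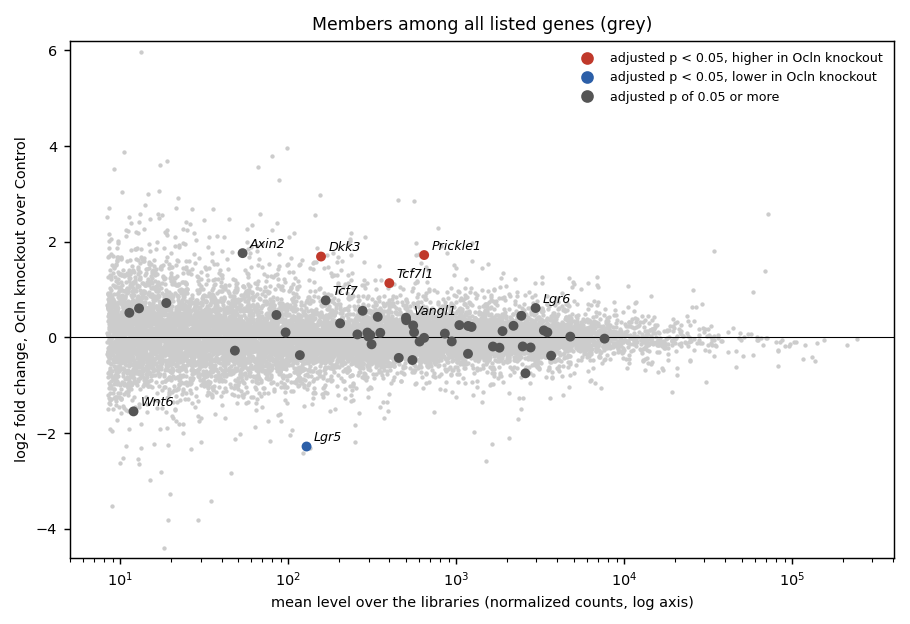
Mean level (horizontal, normalized counts on a log axis) against log2 fold change (vertical) for all 16701 genes in grey and the members in colour, with members at an unadjusted p under 0.05 named. Prickle1 and Tcf7l1 were called at middle levels of 643 and 399, while Axin2 at 53.4 and Wnt6 at 11.98 sit among scattered low genes.

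The planar polarity gene Prickle1 changed with the smallest p of the members. Prickle1 is a LIM-domain protein that binds Vangl and sits with it on one side of a polarized cell. Its level was about 987 normalized counts in Ocln knockout and about 299 in Control libraries, derived from a mean level of 643 in the authors' deposited table. Its log2 fold change in the authors' deposited table was 1.72 ± 0.27 (adjusted p = 3.55e-07 by DESeq2), 3.30-fold with a 95 percent interval of 2.28 to 4.77. Prickle1 occupies chromosome 15 between 93499114 and 93595891, minus strand, on GRCm38 (mm10) in the GENCODE M21 annotation. Pphln1, the nearest listed gene on one side, 7.60 kb away, stood at 0.16 ± 0.16 (adjusted p = 0.871) in the authors' deposited table. Pus7l, the nearest on the other side at 927 kb, stood at -0.05 ± 0.26 (adjusted p = 0.984) there. Both neighbours, picked by position after the calls were known, thus had intervals that include 0.

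The other polarity members had positive values that did not pass. Prickle2 (0.29 ± 0.28) and Prickle3 (0.10 ± 0.19), paralogs of Prickle1, had upper interval bounds of 0.84 and 0.47 in the authors' deposited table, both below the lower bound of 1.19 for Prickle1. Vangl1, a membrane protein of the same complex, stood at 0.36 ± 0.18 (unadjusted DESeq2 p = 0.0469, adjusted p = 0.54) in the authors' deposited table. Its paralog Vangl2 stood at 0.05 ± 0.22 in the authors' deposited table. All 5 polarity members were positive (median 0.29), where 48.8 percent of all genes were, and 1 of the 5 was called.

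RefSeq lists a pair of start sites for Prickle1 and 1 for Tcf7l1 in the promoter table used here. The 250 bases before each start are shown because both genes were called, and because TCF/LEF factors, a role group of this set, bind the core CTTTGA or CTTTGT. Both cores were searched on both strands, and a match is in capitals. The first Prickle1 window is chr15:93595903-93596152, before the start of the long transcript. The second, chr15:93519521-93519770, lies inside the gene before a start further downstream. The Tcf7l1 window is chr6:72789046-72789295. All 3 are on the minus strand of GRCm38.p6 and are written 5′ to 3′ along the gene.
Prickle1, upstream start: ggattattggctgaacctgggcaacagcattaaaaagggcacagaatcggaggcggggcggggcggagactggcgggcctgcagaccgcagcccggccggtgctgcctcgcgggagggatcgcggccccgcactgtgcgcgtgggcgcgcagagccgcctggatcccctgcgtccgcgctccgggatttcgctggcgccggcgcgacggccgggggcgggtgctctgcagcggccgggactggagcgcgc
Prickle1, downstream start: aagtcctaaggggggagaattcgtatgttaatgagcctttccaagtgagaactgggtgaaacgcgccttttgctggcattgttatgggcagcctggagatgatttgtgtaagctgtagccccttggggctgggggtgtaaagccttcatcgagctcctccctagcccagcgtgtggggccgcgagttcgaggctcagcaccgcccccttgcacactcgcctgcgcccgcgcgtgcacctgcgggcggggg
Tcf7l1: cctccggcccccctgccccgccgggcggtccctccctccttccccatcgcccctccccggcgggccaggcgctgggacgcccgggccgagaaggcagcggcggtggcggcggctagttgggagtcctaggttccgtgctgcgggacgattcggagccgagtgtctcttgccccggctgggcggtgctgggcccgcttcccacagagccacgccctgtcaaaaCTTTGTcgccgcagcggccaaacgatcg
Neither Prickle1 window held a match. The Tcf7l1 window held 1, CTTTGT on the gene strand beginning 28 bases before the start. Of 32851 windows of this length in RefSeq, 27.6 percent held at least 1 match, as did 12 of the 47 windows of the 34 members with an entry (25.5 percent). The windows were 74.0 and 60.8 percent G and C for the upstream and downstream Prickle1 starts and 73.6 percent for Tcf7l1. A match is a description of letters, and the data hold no binding measurement.

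Among the TCF/LEF factors, which carry the beta-catenin signal to DNA, Tcf7l1 rose. Tcf7l1 acts mainly as a repressor of Wnt targets. Its level was about 549 normalized counts in Ocln knockout and about 249.7 in Control libraries, derived from a mean level of 399 in the authors' deposited table. The log2 fold change in the authors' deposited table was 1.14 ± 0.30 (adjusted p = 0.0194 by DESeq2), 2.20-fold with an interval of 1.46 to 3.30. This is the weakest of the 4 calls: after scores were divided by the inflation of all scores its adjusted p was 0.0626. Tcf7, a factor best known from T cells, stood at 0.78 ± 0.32 (unadjusted DESeq2 p = 0.0144, adjusted p = 0.349) in the authors' deposited table, short of the threshold. Tcf7l2, the most abundant of the 3 per kb of exon, stood at 0.24 ± 0.23 in the authors' deposited table. The neighbours of Tcf7l1 on chromosome 6, where it spans 72626378 to 72789254, were Tgoln1 at -0.03 ± 0.18 and Kcmf1 at 0.10 ± 0.15 in the authors' deposited table.

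The LGR receptors bind R-spondins and so keep frizzled receptors at the surface. No R-spondin was among the listed genes. Lgr5, which marks stem cells in several epithelia and is a beta-catenin target in the intestine, fell. Its level was about 43.9 normalized counts in Ocln knockout and about 213 in Control libraries, derived from a mean level of 128 in the authors' deposited table. The log2 fold change there was -2.28 ± 0.42 (adjusted p = 3.46e-05 by DESeq2), which is 20.6 percent of the Control level with an interval of 11.7 to 36.4 percent. Lgr5 lies on chromosome 10 from 115450311 to 115587780, and its neighbours Zfc3h1 (0.15 ± 0.18) and Gm8960 (0.05 ± 0.50) in the authors' deposited table had intervals that include 0.

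Lgr6, its paralog, had the opposite sign. Its level was about 3589 normalized counts in Ocln knockout and about 2343 in Control libraries, derived from a mean level of 2966 in the authors' deposited table. The log2 fold change in the authors' deposited table was 0.62 ± 0.19 (unadjusted DESeq2 p = 0.00105, adjusted p = 0.0742). Of the 47 members that did not pass, Lgr6 came closest to the threshold. Lgr4, the third receptor, stood at 0.08 ± 0.23 in the authors' deposited table. The 95 percent intervals of Lgr5 (-3.10 to -1.46), Lgr4 (-0.38 to 0.54) and Lgr6 (0.25 to 0.98), from the SEs of the authors' deposited table, show that Lgr5 overlapped neither paralog. Per kb of exon, the mean level was 441 for Lgr6, 169 for Lgr4 and 27.2 for Lgr5, from the levels of the authors' deposited table. Rnf43 (0.22 ± 0.18) and Znrf3 (0.02 ± 0.22), the ubiquitin ligases that remove frizzled receptors and are themselves held back by R-spondins and LGRs, missed the threshold in the authors' deposited table.

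Among the secreted inhibitors, Dkk3 rose. It is the divergent member of the Dickkopf family, whose other members block LRP co-receptors, and its own part in Wnt signalling is less settled. Its level was about 239 normalized counts in Ocln knockout and about 74.0 in Control libraries, derived from a mean level of 156 in the authors' deposited table. The log2 fold change there was 1.69 ± 0.41 (adjusted p = 0.00584 by DESeq2), 3.23-fold with an interval of 1.86 to 5.60. Dkk3 spans 112116017 to 112159057 on chromosome 7. One neighbour, Usp47, stood at 0.06 ± 0.14, and the other, Mical2, 66.8 kb away, at -0.76 ± 0.36 (unadjusted DESeq2 p = 0.0335, adjusted p = 0.488) in the authors' deposited table, the sign opposite to Dkk3.

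The remaining genes grouped by symbol as secreted inhibitors did not pass. Dkkl1, a Dickkopf-like gene, stood at 0.26 ± 0.30, and Dkk2 at 0.47 ± 0.90, in the authors' deposited table. The Wnt-binding Sfrp genes stood at 0.56 ± 0.30 for Sfrp2 (unadjusted DESeq2 p = 0.0629), -0.37 ± 0.36 for Sfrp1 and 0.52 ± 0.70 for Sfrp5 in the authors' deposited table. Of the 6 genes put in this group by symbol, Dkk3 and Dkkl1 among them, 5 had a positive value, where 48.8 percent of all genes did. The median of the 6 was 0.49. The widest of these intervals, -1.30 to 2.24 for Dkk2, allows large changes either way.

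None of the 8 listed Wnt ligands passed. The 4 ligands with the highest levels per kb of exon, from the authors' deposited table, were Wnt5b at 919, Wnt4 at 615, Wnt7b at 391 and Wnt5a at 353 normalized counts per kb. Wnt4 had a log2 fold change of -0.75 ± 0.62 (adjusted p = 0.82) in the authors' deposited table, with an interval of -1.97 to 0.47. Wnt5a, a ligand of the beta-catenin-independent branch, stood at -0.19 ± 0.27, its relative Wnt5b at 0.45 ± 0.30 and Wnt7b at -0.21 ± 0.21 in the authors' deposited table. Wnt11, another ligand of that branch, stood at -0.14 ± 0.98 in the authors' deposited table. Its interval of -2.07 to 1.78 holds large changes of both signs.

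Wnt6 had a mean level of 11.98 in the authors' deposited table, about 6.11 in Ocln knockout and about 17.8 in Control libraries, with a log2 fold change of -1.54 ± 0.76. It did not pass (unadjusted DESeq2 p = 0.0429, adjusted p = 0.521), although the authors' own call in the deposited table, made on the unadjusted p, was Down. Wnt9a (0.72 ± 0.53) and Wnt2b (0.61 ± 0.71) also had mean levels under 20 in the authors' deposited table. For secretion, Wls, the carrier that takes Wnts to the surface, stood at -0.38 ± 0.22 (unadjusted DESeq2 p = 0.0832), and Porcn, the enzyme that attaches their lipid, at 0.06 ± 0.19 in the authors' deposited table.

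**Figure D3:**
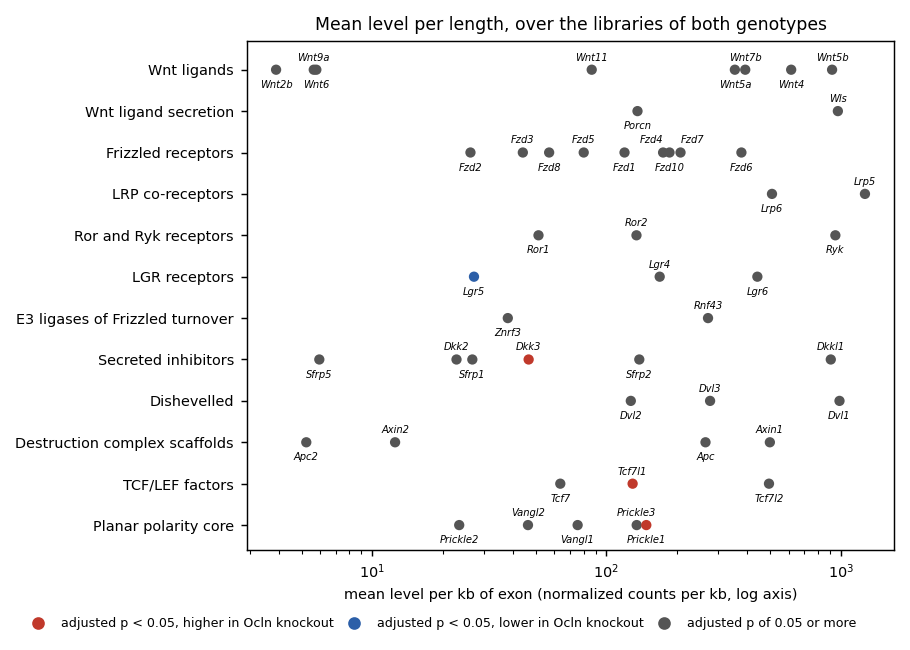
Mean level over the libraries of both genotypes per kb of exon (horizontal, log axis) for the 50 members with a GENCODE length, by role. Lrp5 stands highest at 1269. The called Lgr5 is lowest of the LGR receptors at 27.2, and Prickle1 is highest of the polarity genes at 148.

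No frizzled gene passed. Of 10 members whose symbol begins with Fzd, 0 were called and 0 had an unadjusted DESeq2 p under 0.05, with 5 positive and 5 negative values and a median of 0.01. Fzd6 (-0.19 ± 0.19) and Fzd7 (-0.08 ± 0.22) had the highest levels per kb of the receptors in the authors' deposited table, followed by Fzd10 at -0.09 ± 0.31. Fzd4, also a receptor for norrin, stood at -0.34 ± 0.25 in the authors' deposited table. The highest positive values were 0.43 ± 0.28 for Fzd8 and 0.41 ± 0.30 for Fzd1 in the authors' deposited table. Fzd5 (0.25 ± 0.18), Fzd3 (0.11 ± 0.18) and Fzd2 (0.10 ± 0.28) followed there. Fzd10os is a long non-coding RNA and no receptor, and stood at -0.43 ± 0.24 (unadjusted DESeq2 p = 0.0737) in the authors' deposited table. In RefSeq it ends at 128600687 on chromosome 5 and Fzd10 begins at 128601106, so the annotated genes share 0 bases.

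The co-receptor genes Lrp5 (-0.02 ± 0.18) and Lrp6 (0.02 ± 0.18) had values near 0 in the authors' deposited table. Their intervals, -0.38 to 0.33 and -0.33 to 0.36, are narrower than that of any listed Wnt ligand. Among the alternative receptors, the pseudokinase gene Ryk stood at -0.21 ± 0.14, Ror2, a receptor for Wnt5a, at -0.47 ± 0.35 and Ror1 at 0.10 ± 0.30 in the authors' deposited table. Inside the cell, the Dishevelled genes, whose proteins relay both branches, stood at 0.15 ± 0.17 for Dvl1, 0.24 ± 0.17 for Dvl3 and -0.01 ± 0.18 for Dvl2 in the authors' deposited table.

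In the destruction complex, Axin2 had the largest value and did not pass. Axin2 is a scaffold and a feedback target of beta-catenin signalling. Its level was about 82.5 normalized counts in Ocln knockout and about 24.3 in Control libraries, derived from a mean level of 53.4 in the authors' deposited table. The log2 fold change there was 1.76 ± 0.67 (unadjusted DESeq2 p = 0.00864, adjusted p = 0.27), and the authors called it Up in the deposited table on the unadjusted p. Its interval, 0.45 to 3.08, is wide, and its SE was 1.81 times the median SE of the 200 genes nearest in level. Axin1, the constant scaffold, stood at 0.13 ± 0.15, Apc at 0.11 ± 0.17 and Apc2 at -0.28 ± 0.37 in the authors' deposited table.

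Some members were much less precisely measured than genes of the same level. The SE of Wnt4 was 3.78 times the median SE of the 200 genes nearest in level, that of Wnt11 4.59 times and that of Dkk2 2.86 times. An SE above 2 times the median of its neighbours in level was found for these 3 of 51 members (5.88 percent) and for 1.62 percent of all genes. Of the markers of hormone-sensing luminal cells, 4 of 10 had such an SE, Esr1, Areg, Cited1 and Ly6a, and so did 4 of 10 markers of cycling cells. It was also found for 2 of 6 lymphocyte markers and 1 of 12 myeloid markers. For the called members the ratios were 1.41 for Prickle1, 1.45 for Tcf7l1, 1.51 for Lgr5 and 1.55 for Dkk3. Among genes near in level their SEs ranked high, at percentile 90.5 for Prickle1, 92 for Tcf7l1, 92 for Lgr5 and 94 for Dkk3.

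**Figure D4:**
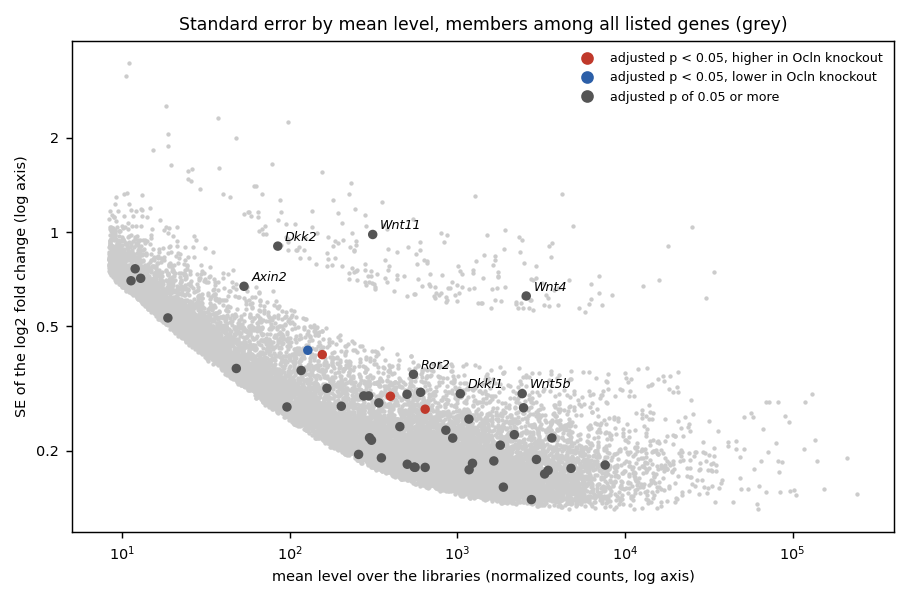
SE of the log2 fold change (vertical, log axis) against mean level (horizontal, log axis) for all genes in grey and the members in colour, with the members named whose SE is over 1.7 times that of genes of like level. Wnt11, Wnt4 and Dkk2 lie in a sparse band above the main cloud.

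Pathway genes outside the symbol rule gave no calls. Of 133 such genes in 5 lists, 114 were listed, and 0 passed the DESeq2 test, while 13 positive and 3 negative genes had an unadjusted p under 0.05. This is 14.0 percent of those listed, beside 9.07 percent of all genes. The 114 listed genes had a median log2 fold change of 0.05. Of 25 listed planar polarity genes beyond Prickle and Vangl, 6 positive and 0 negative ones had an unadjusted p under 0.05. This is 24.0 percent beside 9.07 percent of all genes. The share is not corrected for the rise of scores with exon length (Spearman rho of 0.178 over all genes). This list, too, was chosen with earlier results of these data known. The median of the 25 genes was 0.12. The lowest p of these belonged to Celsr2, an adhesion receptor of the polarity complex, at 0.47 ± 0.16 (adjusted p = 0.148) in the authors' deposited table. Fat2 (1.25 ± 0.43) and Fat4 (1.35 ± 0.53), giant cadherins, and Smurf1 (0.36 ± 0.15), a ubiquitin ligase that acts on Prickle in mice, were the next by p in the authors' deposited table. Fat1, second to Celsr2 in mean counts within that list, stood at 0.11 ± 0.19 in the authors' deposited table.

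The 28 genes of beta-catenin, its kinases and its transcription partners had a median of -0.01, with Ctnnb1, the beta-catenin gene, at 0.04 ± 0.14 and the kinase gene Csnk1a1 at 0.01 ± 0.13 in the authors' deposited table. Pygo1, a partner of beta-catenin on chromatin, stood at -1.21 ± 0.35 (adjusted p = 0.0548) in the authors' deposited table. The 20 listed beta-catenin targets outside the rule had a median of 0.11. An unadjusted p under 0.05 was found for 10.0 percent of them, beside 9.07 percent of all genes, 2 positive and 0 negative ones. These were Met, the hepatocyte growth factor receptor gene, at 0.71 ± 0.24 (adjusted p = 0.157) and Nfatc2 at 0.67 ± 0.33 in the authors' deposited table. The targets with the highest mean counts, not corrected for length, Ccn1 (-0.15 ± 0.15) and Sox9 (0.14 ± 0.22), had intervals that include 0 in the authors' deposited table.

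Of 15 listed modulators outside the rule, 2 positive and 1 negative had an unadjusted p under 0.05, at a median of 0.09. That share is 20 percent, beside 9.07 percent of all genes. Cthrc1, a secreted protein that favours the polarity branch in mice, stood at -1.08 ± 0.31 (adjusted p = 0.0507), the syndecan gene Sdc1 at 0.46 ± 0.16 (adjusted p = 0.158) and Trabd2b at 0.78 ± 0.30 in the authors' deposited table. Atp6ap2, next to Sdc1 in mean counts, had a value of 0.09 ± 0.13 in the authors' deposited table. Of 28 effectors of polarity and of the calcium branch, 4 positive and 1 negative had an unadjusted p under 0.05, at a median of 0.07. That is 17.9 percent, beside 9.07 percent of all genes. Camk2a, a calcium-dependent kinase gene with a mean level of 22.2, stood at 2.91 ± 0.85 (adjusted p = 0.0548) and its paralog Camk2b at -1.11 ± 0.54 in the authors' deposited table. Nfat5 (0.36 ± 0.17) and Nfatc4 (0.87 ± 0.42) had positive values, and the GTPase genes Cdc42 (0.06 ± 0.14) and Rac1 (-0.11 ± 0.17) had the highest mean counts of these effectors in the authors' deposited table.

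**Figure D5:**
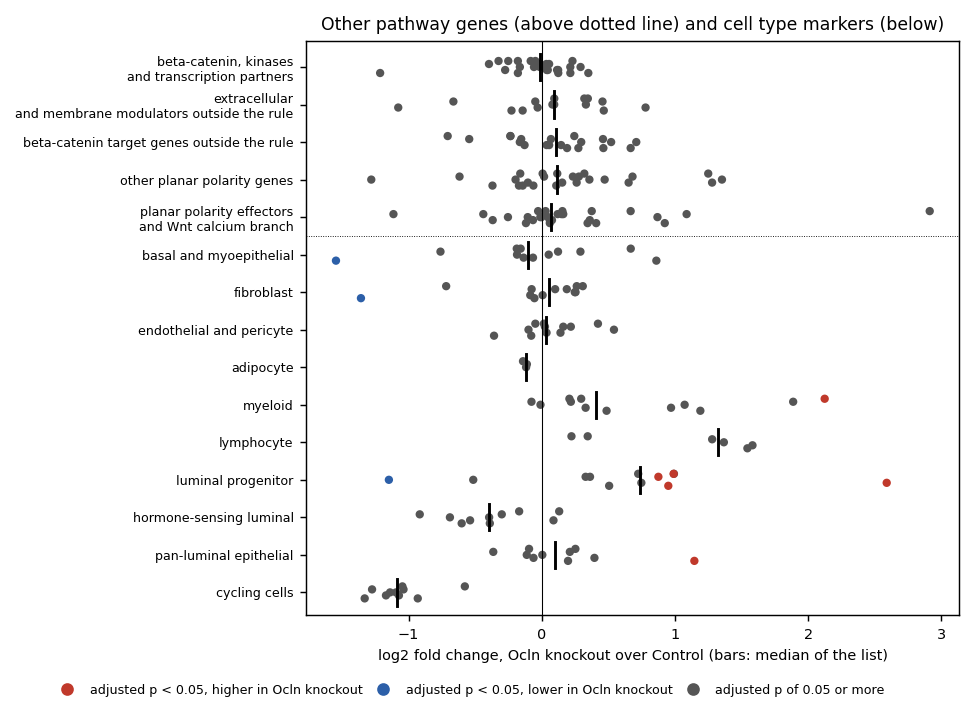
Log2 fold change of Ocln knockout over Control for each listed gene of 5 other pathway lists and 10 marker lists (points), with the median of each list as a black bar. The pathway medians lie between -0.01 and 0.12, the luminal progenitor median at 0.74, the hormone-sensing median at -0.39 and the cycling cell median at -1.08.

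Markers of several cell types moved beside these genes, and their part in the results was not tested. Of 12 luminal progenitor markers, 4 rose and 1 fell, with a median of 0.74. These 5 calls are 41.7 percent of the list, where 1.08 percent of all listed genes were called. The summed level of the 12 markers was about 323832 in Ocln knockout and about 154881 in Control libraries. Most of this difference came from Ltf alone, at about 123631 in Ocln knockout and about 20540 in Control libraries. Rising markers in the authors' deposited table were Ltf (2.59 ± 0.29), Trf (0.99 ± 0.26), Mfge8 (0.95 ± 0.26) and Wfdc18 (0.88 ± 0.25), and the fall was Csn3 (-1.15 ± 0.31). The positive markers Itga2, Ehf, Elf5 and Aldh1a3 had an unadjusted DESeq2 p under 0.05 and were not called. Lalba, the other negative marker, stood at -0.52 ± 0.31 (unadjusted DESeq2 p = 0.0949) in the authors' deposited table. The 10 listed hormone-sensing markers, of the cells that make Wnt4, had a median of -0.39, 0 calls by DESeq2 and 1 negative marker, Ptn, with an unadjusted p under 0.05. Ptn (-0.60 ± 0.29) and Prlr (-0.40 ± 0.26), which encodes the prolactin receptor, had the highest mean counts among them in the authors' deposited table. The summed hormone-sensing level was about 153031 in Ocln knockout and about 211767 in Control libraries. The 10 cycling cell markers all had negative values, median -1.08, with 0 calls by DESeq2 and an unadjusted p under 0.05 for 6 of them. These 6 are 60 percent of the list, beside 9.07 percent of all genes. The cycling markers with the highest mean counts, Top2a (-0.93 ± 0.64) and the Ki-67 gene Mki67 (-1.09 ± 0.62), were not among the 6 in the authors' deposited table. The lowest p of the 6 were those of Cenpf, a kinetochore protein gene, at -1.27 ± 0.39 (adjusted p = 0.0735) and the cyclin gene Ccnb2 at -1.33 ± 0.45 (adjusted p = 0.149) in the authors' deposited table, and Plk1, Ccnb1, Aurka and Aurkb were the others. The summed cycling cell level was about 2334 in Ocln knockout and about 4715 in Control libraries.

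Of 12 basal and myoepithelial markers, 1 fell, the oxytocin receptor gene Oxtr (-1.55 ± 0.38, adjusted p = 0.00733) in the authors' deposited table, at a list median of -0.10. Krt14 (-0.14 ± 0.30) and Krt5 (-0.19 ± 0.39), the defining basal keratins, had intervals that include 0, and Krt17, another basal keratin, stood at 0.86 ± 0.42 (unadjusted DESeq2 p = 0.0411, adjusted p = 0.514) in the authors' deposited table. The markers Lgals7 (0.12 ± 0.32) and Acta2 (-0.16 ± 0.28) had the highest mean counts of this list in the authors' deposited table. The summed basal level was about 2645 in Ocln knockout and about 2949 in Control libraries. Of 12 fibroblast markers, 1 fell, Dcn (-1.36 ± 0.35), while Col6a3 stood at -0.09 ± 0.33 in the authors' deposited table, at a list median of 0.05. The summed fibroblast level was about 9266 in Ocln knockout and about 9875 in Control libraries. Most of that was Col6a3, at about 7512 and about 7978. Myeloid markers had 1 rise of 12, S100a8 (2.12 ± 0.53), with Cd14 at 0.33 ± 0.18 and Lyz2 at 0.97 ± 0.29 in the authors' deposited table. S100a9, the partner of S100a8, stood at 1.89 ± 0.57 (unadjusted DESeq2 p = 0.000985, adjusted p = 0.0713) in the authors' deposited table. The myeloid median was 0.41, with 10 of the 12 markers positive and 2 negative. Ptprc (1.19 ± 0.76), Itgam (1.07 ± 0.58) and Cd68 (0.49 ± 0.26) had positive values with intervals that include 0 in the authors' deposited table. The macrophage markers Csf1r (0.21 ± 0.25), Adgre1 (0.30 ± 0.37), C1qa (0.22 ± 0.26), C1qb (-0.01 ± 0.25) and Fcgr1 (-0.08 ± 0.57) had intervals that include 0 in the authors' deposited table. The summed myeloid level was about 10001 in Ocln knockout and about 7584 in Control libraries. Most of it was Cd14, at about 7598 and about 6050, a gene that is also in the luminal progenitor list. The 6 listed lymphocyte markers, all positive with a median of 1.32, summed to about 594 in Ocln knockout and about 294 in Control libraries, with Cd3e, Cd3d and Cd79a not listed. Ighm (1.58 ± 1.15) and Trbc2 (0.22 ± 0.47) had their highest mean counts in the authors' deposited table. The endothelial and pericyte median was 0.03 over 12 genes and the adipocyte median -0.12 over 3, with 0 calls by DESeq2 and 0 at an unadjusted p under 0.05 in both. Their highest mean counts in the authors' deposited table were those of Notch3 (0.16 ± 0.14), Vwf (0.22 ± 0.20), Pnpla2 (-0.12 ± 0.16) and Lipe (-0.11 ± 0.21), and Adipoq and Plin1 were not listed. Among 10 pan-luminal markers 1 rose, Muc1 (1.15 ± 0.29), and Cldn7 (0.39 ± 0.15) and Krt19 (-0.36 ± 0.18) had an unadjusted DESeq2 p under 0.05 with opposite signs in the authors' deposited table. In the same list Krt18 stood at -0.10 ± 0.15 and Krt8 at -0.06 ± 0.14 in the authors' deposited table. The summed pan-luminal level was about 358278 in Ocln knockout and about 366370 in Control libraries.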

How the data were processed

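The members and all gene lists were chosen with earlier results of these data known. The deposited file is a table of 1 comparison that, per the submitters' processing notes, was made with DESeq2 on mm10. No source used here gives the aligner, counter, annotation or model. As named per the file headers, the deposited columns are a mean signal over all libraries in normalized counts, called the mean level, a log2 fold change with its SE, a Wald score, a p-value and an adjusted p-value. Its last column is the authors' own call, another kind of value. The direction comes from the name of the deposited table, knockout over control. The Wald score equalled fold change over SE to within 2.6e-07, and the deposited calls matched, with 0 exceptions, unadjusted p under 0.05 and a log2 fold change larger in size than 1.01. The lowest mean level listed is 8.35.

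The count model planned for values per library was not used, so the authors' test is reported and no new test per gene was run. Intervals, approximate group levels and re-adjusted p-values were computed in Python 3.11.15 with numpy 2.4.6, pandas 2.3.3 and scipy 1.17.1, and tested on simulated scores. Lengths and positions came from the GENCODE M21 basic annotation on GRCm38, which matched 16250 of 16701 symbols and 50 of 51 members, and promoter windows from RefSeq on GRCm38.p6. Alternatives were an adjusted p of 0.01, a change of 1 or more in size on the log2 scale, a mean level of at least 50, the authors' calls, scores deflated by their inflation factor (1.18), scores less their median in 20 bins of exon length, and, added after the data were seen, fold changes less the median of all genes. Named genes are all members, and of the other pathway lists those called, up to 4 with the lowest unadjusted p under 0.05 and the 2 with the highest level, and of each marker list those called and the 2 with the highest level. Genes of these lists named beyond that were chosen after their values were seen.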

Additional observations from a re-analysis of the deposited data

How the results depend on the processing

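The members called were the same 4, Prickle1, Dkk3, Tcf7l1 and Lgr5, when a log2 change of 1 or more in size was required, at a mean level of at least 50, with the trend with exon length removed and centring on the median of all genes. Without Tcf7l1, the other 3 were called at an adjusted p of 0.01 and after division by the inflation. By the authors' own calls 6 members were called, 4 higher and 2 lower, Axin2 and Wnt6 being added. All listed genes called under these settings ranged from 107 to 466, or 0.641 to 2.79 percent. Signs turned in 3 values near 0: Lrp6 at -0.0625 and Znrf3 at -0.0819 with the length trend removed, and Dvl2 at 0.000398 after centring. No paired analysis was possible because the table gives no values per library, and for the same reason leaving out a library and other size factors were not run. The SE, not depth, gives the precision here.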
